A study of Rattus norvegicus with 48 samples.

Results

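The 48 genes described here copy the genome or ready the cell for copying it, and 45 of them were measured on the arrays. A gene was taken as measured where a probe set (a group of probes that together read a transcript) carried its symbol and no other in the platform annotation. Where several did, the one with the highest mean over the liver arrays stood for the gene. The array held 31042 probe sets other than controls, and single symbols named 14217 genes. Cdc6, which loads the replicative helicase, and Gins2, a helicase subunit, had no probe set with their symbol in the annotation used here, and Rrm2, the small subunit of ribonucleotide reductase, lay only on probe sets with several symbols, so these 3 genes have no value here.

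The study gave male Sprague-Dawley rats RDX, a nitramine explosive, as 1 oral dose in a gel capsule, at 18 or 3 mg/kg, doses set so that the animals had no seizure. Cortex and liver were taken at 0, 4, 24 and 48 h, with 3 arrays for each tissue, dose and time, which made 16 groups and 48 arrays. No group given an empty capsule at 4, 24 or 48 h was analysed here, and each later group was set against the 0 h group of its own dose arm, and time since handling and time since RDX cannot be told apart. The animals were housed in pairs on a cycle of 12 h light and 12 h dark, and separate animals behind the arrays of a group are not stated in the labels, so the p-values measure only the spread between arrays. All values are log2 signals as deposited, so that a difference of 1 is a doubling, and they are given by dose arm, time and replicate number.

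Copying a genome begins at origins marked by the origin recognition complex, where Cdc6 and Cdt1 load the ring of Mcm proteins, and Cdc45 and the GINS proteins turn that ring into a working helicase. Polymerases, primase, the Pcna clamp and its loader then build the new strands while replication protein A covers the bare template. In adult liver most hepatocytes rest outside the cell cycle, and transcription factors of the E2F family switch on many of these genes when cells pass from G1 into S phase, whereas Cdk1 and Mki67 peak later, towards mitosis.

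The promoters of the 4 measured genes with the smallest p in any liver comparison with 0 h, among those with a promoter in the RefSeq table, are shown because the E2F letters in them are the feature that many of these genes share. The windows run from 250 bases before to 50 bases after the annotated start on GRCr8, 5′ to 3′ on the gene's strand. They lie at chr1:99927860-99928159 (minus strand) for Ccne1, chr5:150260522-150260821 (plus strand) for Rpa2, chr13:42404303-42404602 (minus strand) for Mcm6 and chr9:120776034-120776333 (minus strand) for Tyms. Capitals mark the letters TTTCCCGC, TTTCGCGC, TTTGCCGC or TTTGGCGC on either strand.
Ccne1: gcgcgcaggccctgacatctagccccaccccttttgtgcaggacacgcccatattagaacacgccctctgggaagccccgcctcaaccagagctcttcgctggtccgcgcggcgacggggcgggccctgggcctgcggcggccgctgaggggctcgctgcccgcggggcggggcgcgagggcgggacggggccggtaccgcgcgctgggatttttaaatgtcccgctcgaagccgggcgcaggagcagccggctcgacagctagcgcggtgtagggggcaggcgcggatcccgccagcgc
Rpa2: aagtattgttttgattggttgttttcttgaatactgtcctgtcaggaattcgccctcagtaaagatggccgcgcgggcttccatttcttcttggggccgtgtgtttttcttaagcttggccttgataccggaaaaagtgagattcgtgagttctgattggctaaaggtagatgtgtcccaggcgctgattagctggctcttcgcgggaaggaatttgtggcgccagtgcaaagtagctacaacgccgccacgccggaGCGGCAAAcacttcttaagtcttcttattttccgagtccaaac
Mcm6: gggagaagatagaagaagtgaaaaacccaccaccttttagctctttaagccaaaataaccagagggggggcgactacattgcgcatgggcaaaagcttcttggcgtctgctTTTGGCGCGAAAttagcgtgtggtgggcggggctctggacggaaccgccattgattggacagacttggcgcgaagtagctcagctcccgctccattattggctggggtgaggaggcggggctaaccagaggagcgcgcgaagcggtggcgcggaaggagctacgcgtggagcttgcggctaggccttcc
Tyms: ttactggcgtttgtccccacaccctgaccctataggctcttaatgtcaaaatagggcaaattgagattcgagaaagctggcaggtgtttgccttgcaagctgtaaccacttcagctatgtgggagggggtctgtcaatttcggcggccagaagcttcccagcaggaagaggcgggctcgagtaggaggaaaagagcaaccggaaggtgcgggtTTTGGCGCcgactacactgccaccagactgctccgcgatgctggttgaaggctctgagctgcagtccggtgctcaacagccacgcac
The Mcm6 window held 2 matches that overlap, the first starting 139 bases before the annotated start. The Tyms window held 1 match, starting 37 bases before it, and the Rpa2 window held 1, which lay just after the start. The Ccne1 window held 0.

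Of the 45 measured genes, 39 had a promoter in the table. Orc1, Mcm4, Gins4, Rpa3, Ccne2 and E2f1 did not. The E2F letters were found in 17 of the 39 windows (43.6%), against 2.14% of all 33469 promoters of the same length. Mcm5 held 3 matches, and Mcm2, Mcm3, Mcm6, Mcm7, Cdt1, Gins1 and Rfc3 held 2 each. The letters CCAAT, read on both strands, were found in 22 windows (56.4%), against 37.5% of all promoters, and the letters TTTGAA, read on both strands, in 3 windows (7.69%), against 18.3%. TTTGAA is the core of the element through which many mitotic genes are held back, and Cdk1 and Mki67 held 2 matches each. A match is a description of the letters and not a measured binding site. Genes with and without the E2F letters had similar values at 48 h after 18 mg/kg: the median log2 change from 0 h was -0.31 in the 17 genes with the letters and -0.30 in the 22 genes without them, with 16 and 20 of them below 0.

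The labelled tissues were checked on the summed linear signal of marker genes. Neuron markers summed to between 147 and 354 in liver arrays, against 16046 to 20906 in cortex arrays. Hepatocyte markers summed to between 25442 and 86088 in liver, against 4301 to 34914 in cortex. The lowest hepatocyte sum in liver came from 1 of 2 arrays with a compressed range of values, and that sum lay within the cortex range. Replicate 1 at 4 h after 18 mg/kg had an SD over all probe sets of 1.38 and replicate 2 of the 0 h group of the 3 mg/kg arm an SD of 1.49, against 1.82 to 2.08 in the other 22 liver arrays. In whole tissue, fewer cells of a kind and less RNA per cell cannot be told apart.

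Most of the 45 genes read higher in liver than in cortex, as the plot of levels in both tissues shows. The mean over 24 arrays was higher in liver for 30 genes. For 8 of them every liver array lay above every cortex array: Tk1, Chek1, Tyms, Mcm5, Pole, Mcm10, Mcm7 and Chaf1b. The shares of all probe sets that did so were not counted, so these counts do not set the replication genes apart. Tk1, the thymidine kinase that salvages thymidine for DNA, averaged 8.57 in liver (range 7.66 to 9.25), against 6.32 in cortex (range 6.14 to 6.47). Tyms, thymidylate synthase, averaged 6.08 in liver (range 5.23 to 7.14), against 4.26 in cortex (range 4.07 to 4.58). Orc6, a subunit of the origin recognition complex, was the 1 gene with every liver array below every cortex array, with a mean of 5.62 in liver, against 7.53 in cortex. The liver arrays also varied more: the SD over arrays was larger in liver for 41 of the 45 genes, and the same held for 87.3% of all probe sets.

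**Figure D1:**
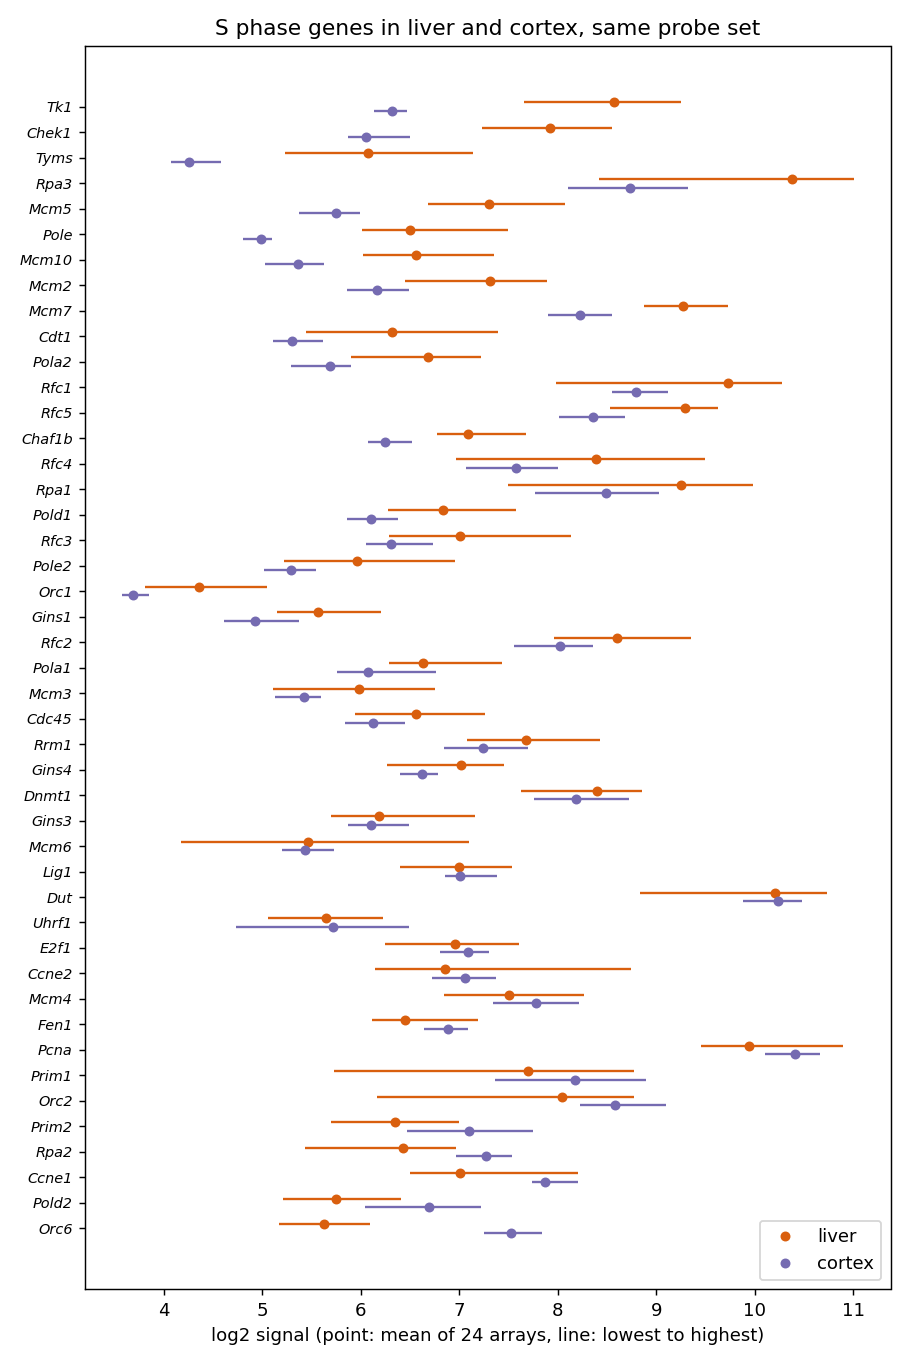
Log2 signal of the 45 measured genes on the same probe set in liver (orange) and cortex (purple), with points for the mean of 24 arrays and lines from the lowest to the highest array, sorted by the difference of the means. Tk1 stands at the top with 8.57 in liver and 6.32 in cortex, and Orc6 at the bottom with 5.62 and 7.53.

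Liver 48 h after the 18 mg/kg dose was set against its 0 h group to see whether the genes of DNA copying moved with the mitotic genes. Cdk1, the kinase that drives entry into mitosis, and Mki67, the Ki-67 protein that coats mitotic chromosomes, fell steeply. The replication genes read mostly lower, by far less, and none of the 45 passed the test (background 0.0966% of probe sets called). Their median log2 change was -0.30, with 41 of 45 genes below 0, while the median of all probe sets was 0.0047 and 51% of them lay above 0. At an unadjusted p under 0.05 limma found 10 of the 45 genes, against 1.67% of all probe sets, and the smallest adjusted p among the genes was 0.79. The arrays of 48 h and 0 h did not overlap for 11 of the 45 genes (24.4%), with the 48 h arrays lower in each of the 11; over all probe sets 9.54% did not overlap. The number of genes below 0 was 41 under quantile normalization, 42 after median centring and 44 with array weights, and lay between 38 and 43 when 1 array of the comparison was left out.

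Mcm6, a subunit of the helicase ring (probe set 1371074_a_at), stood lowest. Its log2 signals were 4.92, 4.17 and 4.97 at 48 h after 18 mg/kg, against 6.38, 5.64 and 6.09 at 0 h. Each array at 48 h lay below each array at 0 h. The log2 change was -1.35 ± 0.39 (SE, n = 3 per group; 95% confidence interval -2.15 to -0.55), and limma's adjusted p was 0.79. At 24 h the arrays of this arm read 5.28, 7.1 and 5.94, which overlapped the 0 h arrays, and at 4 h they read 4.87, 5.01 and 5.51, all below the 0 h arrays.

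Uhrf1, which reads hemimethylated DNA behind the fork and brings in Dnmt1, read 5.29, 5.29 and 5.06 at 48 h after 18 mg/kg, against 5.99, 6.18 and 5.6 at 0 h. The groups did not overlap, and the log2 change was -0.71 ± 0.21 (adjusted p = 0.93). Dnmt1, the maintenance DNA methyltransferase, had a change of 0.0013 at the same time. Tk1 read 8.54, 7.78 and 8.25 at 48 h, against 8.92, 9 and 8.83 at 0 h. Its arrays did not overlap either, and its log2 change was -0.73 ± 0.28. Rfc3, a subunit of the clamp loader, read 6.54, 6.59 and 6.64 at 48 h, against 7.33, 7.25 and 7.17 at 0 h, again without overlap, with a log2 change of -0.66 ± 0.27. E2f1, an activator of S phase genes, and Mcm5, another helicase subunit, had log2 changes of -0.70 and -0.75 without overlap. The adjusted p of Tk1, Rfc3, E2f1 and Mcm5 was 1.0 each.

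By role, the values ran the same way at 48 h after 18 mg/kg without any call. Of 10 measured genes of origin recognition and licensing, 9 lay below 0, with a median log2 change of -0.31. All 5 genes of helicase activation and all 8 polymerase and primase genes lay below 0, with medians of -0.22 and -0.31. The clamp and its loader had 5 of 6 genes below 0, and strand binding and flap processing 4 of 5. All 4 genes of nucleotide supply lay below 0, with the lowest median of the roles, -0.52. Cyclin E, checkpoint and chromatin genes had 6 of 7 below 0, with a median of -0.49. The 4 genes above 0, Orc2, Rfc5, Rpa3 and Dnmt1, had changes of at most 0.04. These counts take 1 probe set a gene, and 9 genes had more. Other probe sets lay above 0 for Ccne2 (0.19), Cdc45 (0.17), Mcm10 (0.14), Rfc1 (0.11 and 0.10), Dut (0.086), Rfc5 (0.069) and Orc6 (0.015). The remaining ones lay below 0, for Cdc45 (-0.64 and -0.21), Tk1 (-0.54 and -0.45), Orc6 (-0.16) and Lig1 (-0.0027).

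**Figure D2:**
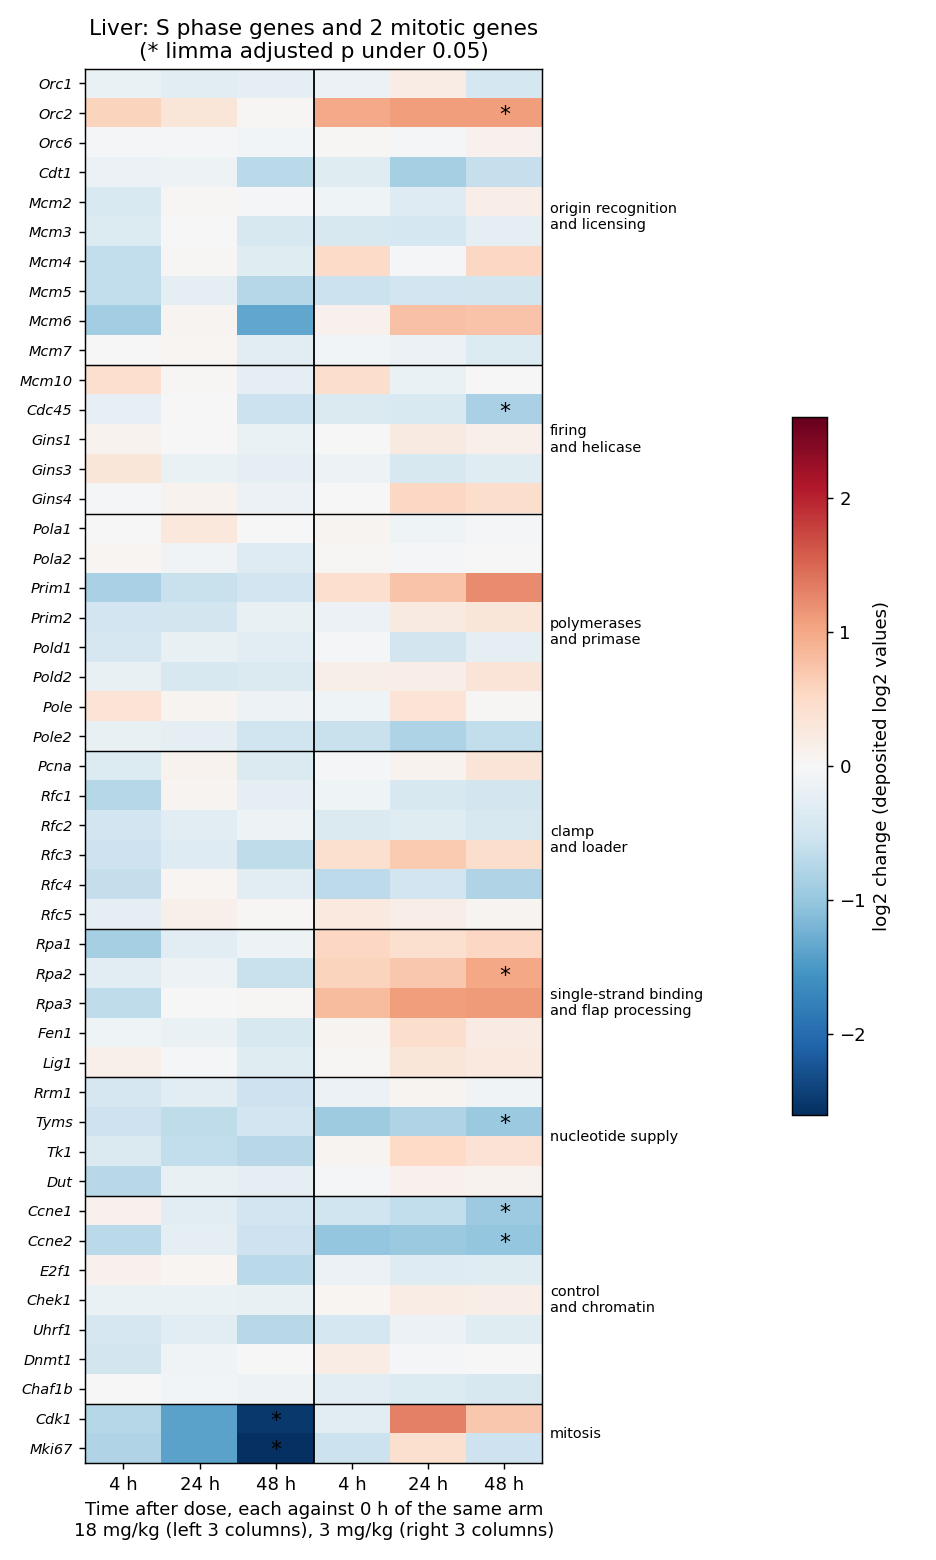
Log2 change in liver of the 45 genes, grouped by role, and of Cdk1 and Mki67, for 4, 24 and 48 h against 0 h after 18 mg/kg (left 3 columns) and 3 mg/kg (right 3 columns), with a star where limma's adjusted p was under 0.05. The 48 h column after 18 mg/kg is pale blue for 41 of 45 genes without a star, and dark blue with a star for Cdk1 (-2.52) and Mki67 (-2.59).

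Cdk1 (probe set 1367776_at) read 6.11, 4.83 and 5.6 at 48 h after 18 mg/kg, against 7.89, 8.04 and 8.15 at 0 h. It fell 5.72-fold (log2 -2.52 ± 0.38, adjusted p = 0.0054). Mki67 (probe set 1374775_at) read 6.01, 5.29 and 6.03 at 48 h, against 8.5, 8.55 and 8.05 at 0 h, and fell 6.03-fold (log2 -2.59 ± 0.34, adjusted p = 0.0011). Neither gene's arrays overlapped. Cdk1 lost its call without replicate 2 of the 0 h group (adjusted p = 0.058) or without replicate 2 of the 48 h group (adjusted p = 0.098), while Mki67 kept it without each of the 6 arrays. Both mitotic genes had been seen to fall before they were chosen for comparison, so their size is a description. In tests of the difference, the change of all 45 genes lay above that of Cdk1 (background 99.9%), by 1.16 to 2.55, and above that of Mki67 (background 99.9%), by 1.24 to 2.63. Nearly every probe set on the array did the same, so these counts do not mark the replication genes.

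The plot of changes in both tissues shows the order in time. In the 18 mg/kg arm the group means of Cdk1 were 8.03, 7.28, 6.64 and 5.51 at 0, 4, 24 and 48 h, and those of Mki67 were 8.37, 7.59, 6.97 and 5.77, lower at each step. The replication genes did not follow that order. Their median log2 change from 0 h was -0.28 at 4 h (36 of 45 below 0), -0.10 at 24 h (31 below 0) and -0.30 at 48 h, against medians over all probe sets of 0.077, 0.0026 and 0.0047. No gene of the 45 passed at 4 h (background 0.0258%) or 24 h (background 0%). At an unadjusted p under 0.05 there were 8 and 2 genes, against 11.4% and 2.43% of all probe sets. The 4 h group holds the array with the most compressed range, and without both compressed arrays 39 genes lay below 0 at 4 h. Over the 4 times of this arm 24 genes had their highest mean at 0 h, and the lowest mean fell at 48 h for 27 genes, 4 h for 14, 24 h for 3 and 0 h for 1. The spread of the 4 group means had a median of 0.54 over the 45 genes and was greatest for Mcm6 at 1.42, against 2.52 for Cdk1 and 2.59 for Mki67.

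**Figure D3:**
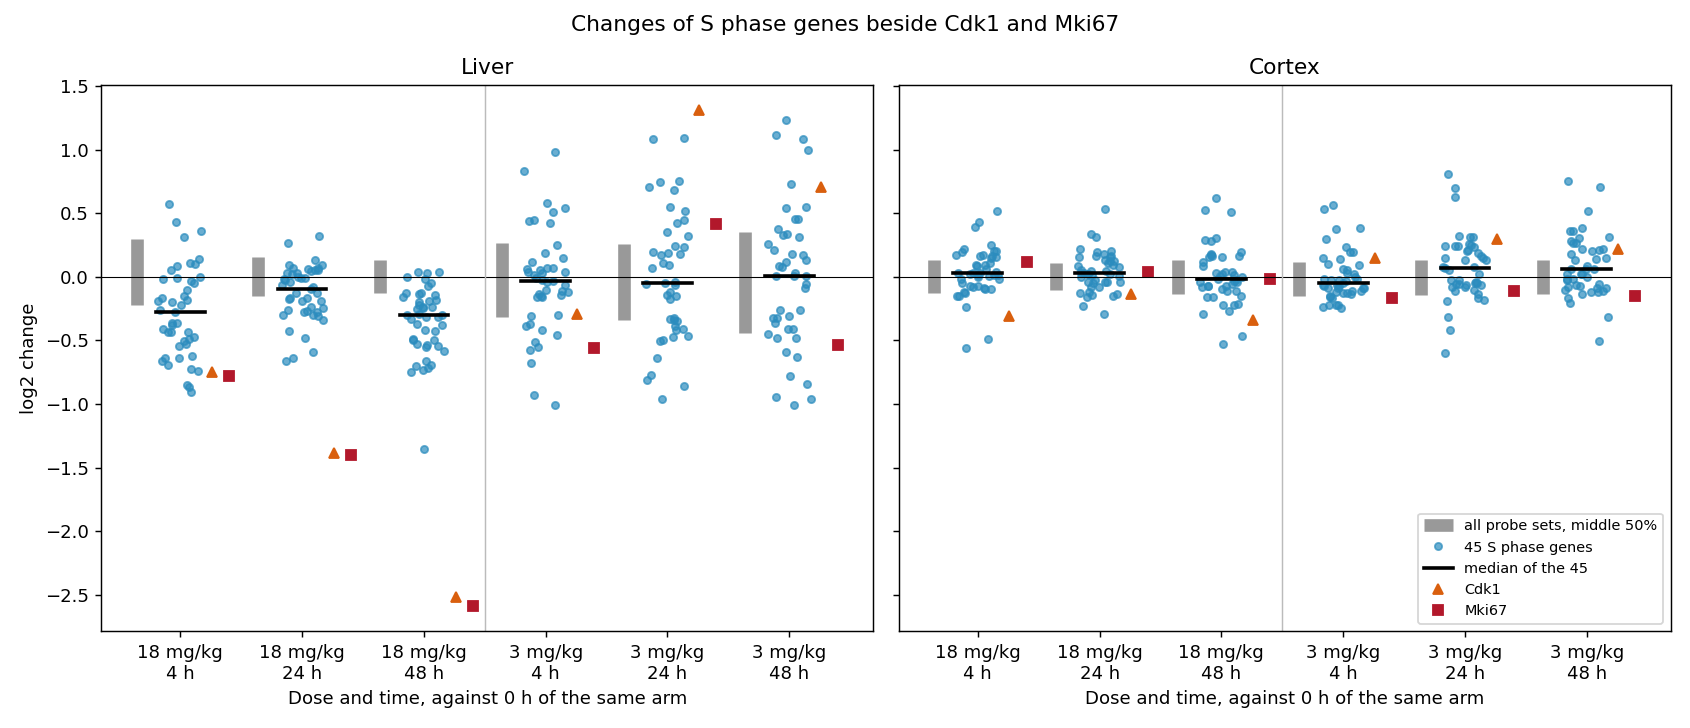
Log2 change from 0 h of the 45 genes (blue points, black bar at their median), of Cdk1 (triangles) and of Mki67 (squares) in liver (left panel) and cortex (right panel), with grey bars for the middle 50% of all probe sets. The median of the 45 is -0.30 in liver at 48 h after 18 mg/kg while Cdk1 and Mki67 stand at -2.52 and -2.59; in cortex no median leaves the range from -0.045 to 0.071.

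Steps between later times do not use the 0 h arrays. After 18 mg/kg, 48 h against 24 h gave a median log2 difference of -0.25 with 36 of 45 genes below 0 and 0 calls (background 0%). Limma gave 5 genes an unadjusted p under 0.05, against 1.85% of all probe sets. Mcm6 differed by -1.42 ± 0.39 with no overlap of its arrays and an adjusted p of 1.0, and Cdk1 and Mki67 by -1.13 and -1.19, also with adjusted p of 1.0. For 24 h against 4 h of that arm the median was 0.13, with 29 of 45 genes above 0 and 0 calls (background 0.00322%). An unadjusted p under 0.05 was found for 4 genes, against 7.68% of all probe sets. Cdk1 and Mki67 stood at -0.64 and -0.62 in that step (adjusted p = 0.60 for each). After 3 mg/kg, 24 h against 4 h had a median of 0.05 and 0 calls (background 0.00966%; 3 genes at an unadjusted p under 0.05). Cdk1 stood at 1.61 ± 0.38 there, with the 24 h arrays above the 4 h arrays and an adjusted p of 0.30. The 48 h against 24 h step after 3 mg/kg had a median of -0.02 and 0 calls (background 0%), with 2 genes at an unadjusted p under 0.05, against 2.32% of all probe sets.

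After 3 mg/kg, 6 of the 45 genes passed at 48 h against 0 h in liver, 2 of them higher and 4 lower (13.3%, background 9.34%). The share is close to that of all probe sets, and so is no result about these genes. Cyclins E1 and E2, thymidylate synthase and the helicase factor Cdc45 fell, while Orc2 and Rpa2 rose. Of the 45 genes 25 lay above 0 and 20 below, with a median log2 change of 0.01, against -0.16 over all probe sets. Quantile normalization turned that split to 17 above and 28 below, with a median of -0.10, against -0.05 over all probe sets.

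Ccne1 and Ccne2 encode the E cyclins, which bind Cdk2 to start S phase. Ccne1 (probe set 1373530_at) read 6.5, 6.72 and 6.67 at 48 h after 3 mg/kg, against 7.26, 8.21 and 7.25 at 0 h, and fell 1.93-fold (log2 -0.94 ± 0.25, adjusted p = 0.029). Ccne2 (probe set 1374359_at) read 6.58, 6.73 and 6.87 at 48 h, against 7.38, 8.74 and 7.09 at 0 h, and fell 2.01-fold (log2 -1.01 ± 0.31, adjusted p = 0.045). In neither gene did the groups overlap, and in both the highest 0 h value came from the compressed array, replicate 2. Without that array the log2 changes were -0.63 and -0.51, with adjusted p of 0.23 and 0.35. At 48 h after 18 mg/kg Ccne1 read 6.61, 6.75 and 6.54, against 7.44, 6.94 and 6.99 at 0 h, again without overlap (log2 -0.49 ± 0.25, adjusted p = 1.0).

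Tyms makes the thymidylate needed for DNA. It (probe set 1369499_at) read 5.76, 6.27 and 5.86 at 48 h after 3 mg/kg, against 7.14, 7.04 and 6.59 at 0 h, and fell 1.95-fold (log2 -0.96 ± 0.28, adjusted p = 0.040). Its arrays at 4 h (6.31, 6.15 and 5.54) and 24 h (5.95, 6.52 and 5.98) also lay below those at 0 h. Without the compressed array the log2 change at 48 h was -0.90. Cdc45, the factor that joins the Mcm ring to make the helicase (probe set 1379235_x_at), read 5.95, 6.17 and 6.52 at 48 h, against 6.7, 7.26 and 7.2 at 0 h, and fell 1.79-fold (log2 -0.84 ± 0.26, adjusted p = 0.044). The 3 other Cdc45 probe sets had log2 changes of -0.80, -0.76 and -0.28 with adjusted p of 0.097, 0.16 and 0.32.

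Orc2, a core subunit of the origin recognition complex (probe set 1389141_at), read 8.06, 8.03 and 8.38 at 48 h after 3 mg/kg, against 7.33, 6.17 and 7.73 at 0 h. It rose 2.12-fold (log2 1.08 ± 0.33, adjusted p = 0.044), and its lowest 0 h value came from the compressed array, without which the log2 change was 0.63. Rpa2, the middle subunit of replication protein A (probe set 1388135_at), read 6.75, 6.71 and 6.97 at 48 h, against 5.43, 5.52 and 6.49 at 0 h, and rose 1.99-fold (log2 0.996 ± 0.264, adjusted p = 0.030). Its groups did not overlap. Rpa3, the small subunit, read 10.66, 10.67 and 10.7 at 48 h, against 9.73, 8.42 and 10.54 at 0 h (log2 1.11 ± 0.38, adjusted p = 0.063). Without the compressed array the log2 changes were 0.85 for Rpa2 and 0.54 for Rpa3. Counted on 1 probe set a gene, all 5 genes of strand binding and flap processing lay above 0 in this comparison, with 1 call. Another Lig1 probe set went the other way, at -0.30.

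**Figure D4:**
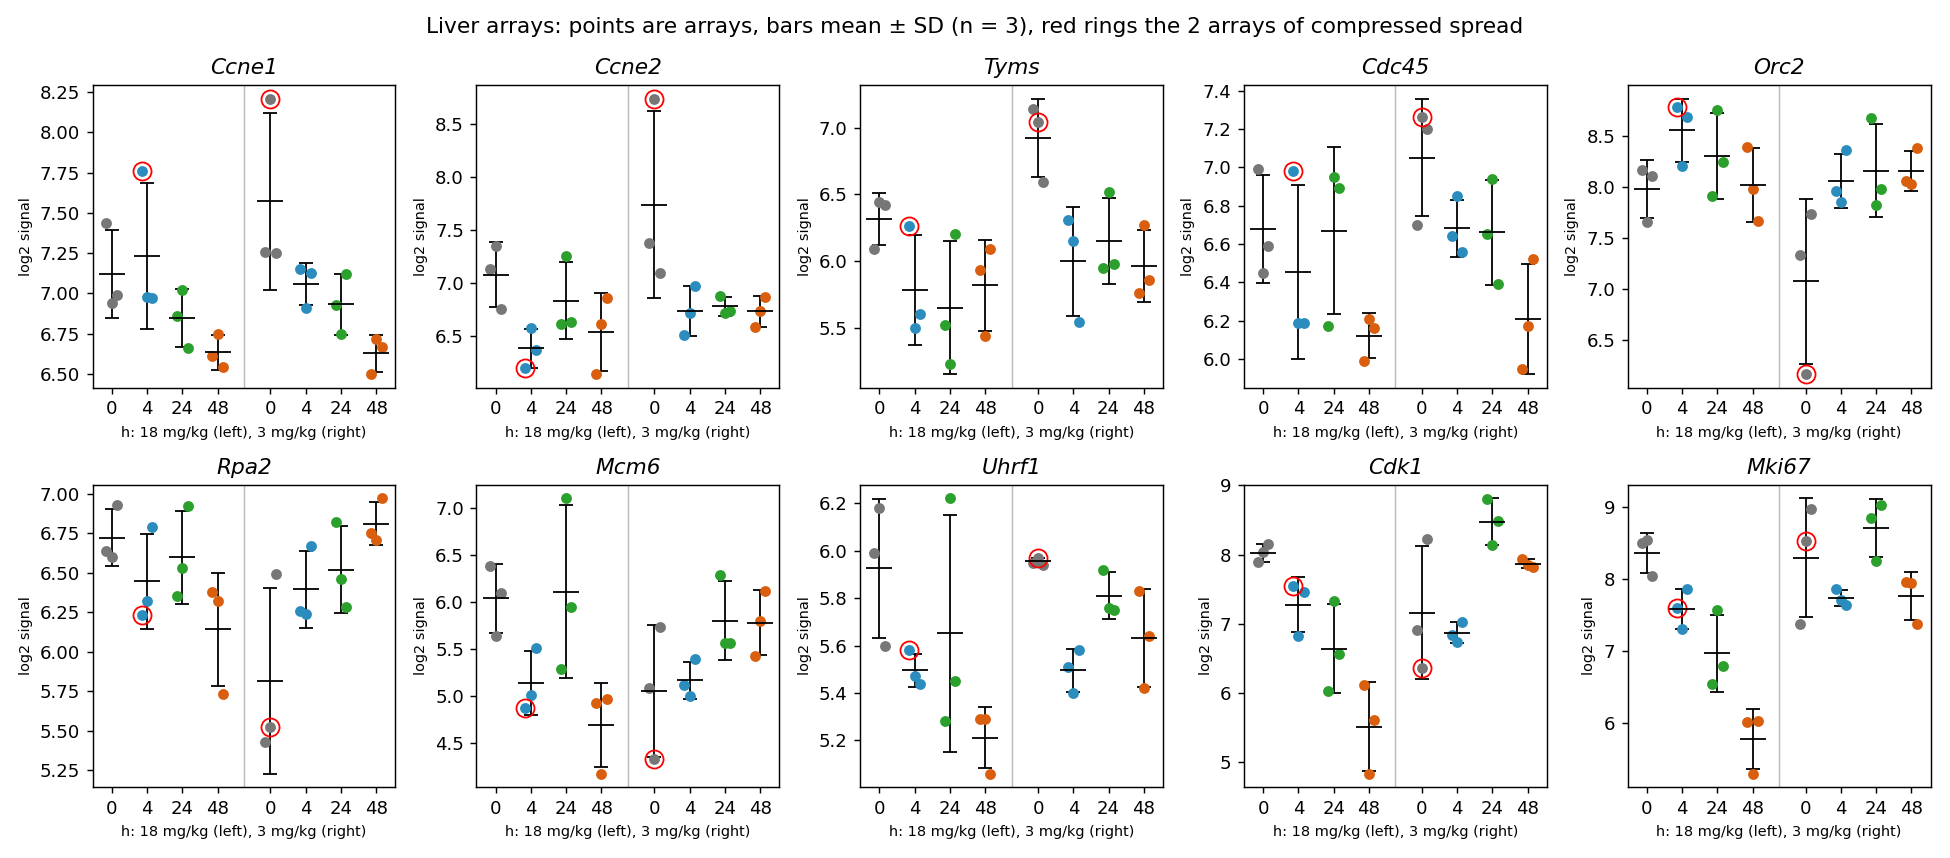
Log2 signal in each liver array (points) with the mean ± SD of each group (n = 3) for the 6 genes that passed at 48 h after 3 mg/kg, for Mcm6 and Uhrf1, and for Cdk1 and Mki67, with 18 mg/kg left and 3 mg/kg right in each panel and red rings around the arrays with a compressed range. The ringed 0 h array of the 3 mg/kg arm is the highest for Ccne1 (8.21) and Ccne2 (8.74) and the lowest for Orc2 (6.17), while Cdk1 and Mki67 step down with time only in the 18 mg/kg arm.

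Prim1, the catalytic subunit of primase, had the largest value of the list in this comparison and did not pass. It read 7.76, 8.37 and 8.76 at 48 h after 3 mg/kg, against 7.14, 5.73 and 8.32 at 0 h, with overlap (log2 1.23 ± 0.52, adjusted p = 0.11). Pole2, a subunit of polymerase epsilon, read 5.9, 6.04 and 5.89 at 48 h, against 6.13, 6.96 and 6.65 at 0 h, without overlap (log2 -0.63 ± 0.26, adjusted p = 0.10). Gins4, a GINS subunit, read 7.46, 6.93 and 7.21 at 48 h, against 6.83, 6.27 and 7.14 at 0 h, with overlap (log2 0.45 ± 0.22, adjusted p = 0.17). Rfc1, the large subunit of the clamp loader, read 9.78, 9.71 and 9.46, against 10.23, 10.28 and 9.9, without overlap (log2 -0.48 ± 0.29, adjusted p = 0.25). Another Rfc1 probe set passed at -0.69 ± 0.22 (adjusted p = 0.048) and a further one stood at 0.02, so the probe sets of this gene disagreed. Over the 45 genes the arrays of 48 h and 0 h did not overlap for 18 (40%), against 36.3% of all probe sets.

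The calls at 48 h after 3 mg/kg rested on single arrays, as the plot with and without the compressed 0 h array shows. Without replicate 2 of the 0 h group, 0 of the 45 genes and 0 of 31042 probe sets passed. In that fit 5 of the 45 had an unadjusted p under 0.05. The share of all probe sets is not given there, so this count is no result about these genes. The change shrank for 34 of the 45 genes, and those of Mcm2, Gins3, Pole and Dut turned sign. Without replicate 1 of the 0 h group 2 genes passed (4.44%, against 4.68% of all probe sets), without replicate 3 of it 8 did (17.8%, against 25%), and without any of the 3 arrays at 48 h 0 did. With the 0 h groups of both arms pooled 0 genes passed. After median centring 3 did (6.67%, against 9.28% of all probe sets), and with both compressed arrays out only Ccne1 (2.22%, against 4.42%). The median size of the change was 0.27 without the compressed array and 0.36 with it over the 45 genes, and 0.28 and 0.42 over all probe sets. Some marker sums stood apart too: hepatocyte markers summed to 80399 to 84236 at 48 h, against 37927 to 75015 at 0 h, and macrophage markers to 6213 to 6539, against 2822 to 5372. Neuron markers, low in liver, summed to 179 to 186, against 204 to 304. The sums of T and NK cell, B and plasma cell, neutrophil and glia markers overlapped between 48 h and 0 h. Cd68 and Csf1r (2 of 5 macrophage markers) and Kdr (1 of 5 endothelial markers) passed higher there. So did Lrat (1 of 6 stellate cell markers) and Epcam (1 of 4 bile duct markers). Cd3e (1 of 7 T and NK cell markers) passed lower, and the other lists had 0 calls. In this comparison 9.34% of all probe sets passed with all arrays. The part of these markers in the changes of the replication genes was not tested.

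**Figure D5:**
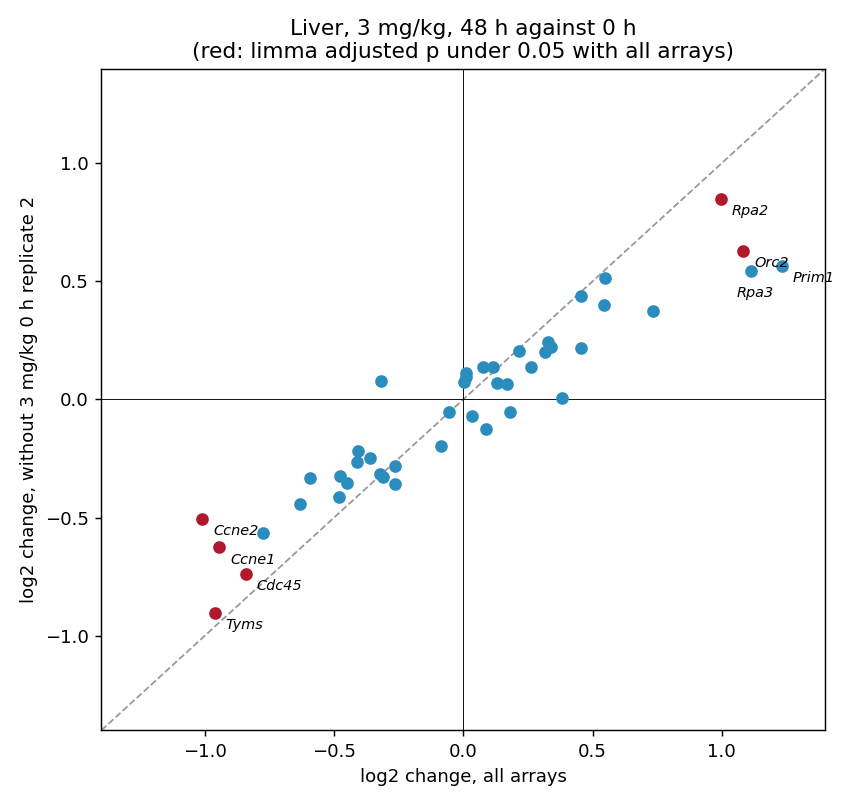
Log2 change at 48 h against 0 h after 3 mg/kg in liver for the 45 genes, with all arrays on the x axis and without the compressed 0 h array on the y axis; the dashed line marks equal values and red points the 6 genes that passed with all arrays. Most points lie between the dashed line and 0, with Ccne2 at -1.01 with all arrays and -0.51 without that array.

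At 4 h and 24 h after 3 mg/kg 0 of the 45 genes passed (background 0.0226% and 0%). At an unadjusted p under 0.05 there were 10 and 12 of them, against 14.2% and 20.0% of all probe sets. The medians were -0.03 and -0.05, with 25 and 24 genes below 0. Without replicate 3 of the 0 h group 5 genes passed at 4 h (11.1%, against 5.83% of all probe sets) and 7 at 24 h (15.6%, against 12.2%). Highest group means were spread over the times of this arm, with 17, 6, 13 and 9 genes at 0, 4, 24 and 48 h. Mki67 and Cdk1 did not pass at any time after 3 mg/kg, although Cdk1 read 8.81, 8.14 and 8.49 at 24 h, against 6.91, 6.36 and 8.22 at 0 h (log2 1.32 ± 0.38, adjusted p = 0.098).

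At 48 h after 18 mg/kg the markers of liver, blood and brain cells, in 11 lists, had 0 calls. Hepatocyte markers summed to 78038 to 84556, against 73718 to 86088 at 0 h, macrophage markers to 5855 to 6613, against 5574 to 6942, T and NK cell markers to 439 to 541, against 442 to 511, and B and plasma cell markers to 329 to 366, against 297 to 371. No probe set is listed at 0 on these arrays. The actin 3′ minus 5′ gap, a log2 measure that grows as RNA degrades, averaged 3.54 ± 0.12 at 48 h and 3.34 ± 0.43 at 0 h (SD, n = 3 each). After 3 mg/kg it averaged 3.15 ± 0.28 at 48 h and 3.85 ± 0.55 at 0 h.

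Weighting the arrays by their estimated quality changed the counts most. The weights of the compressed arrays were 0.0545 and 0.116, the lowest of the 24 liver arrays, and the estimate stopped before it converged. With weights 8 of the 45 genes passed at 48 h after 18 mg/kg (17.8%), all lower, against 0.667% of all probe sets: Mcm5, Mcm6, Rfc3, Rrm1, Tk1, Ccne1, E2f1 and Uhrf1. Mcm5, Mcm6 and Pold1, the catalytic subunit of polymerase delta, also passed lower at 4 h (6.67% against 1.75%), and 0 genes passed at 24 h. After 3 mg/kg the weighted fit called 13, 18 and 17 genes at 4, 24 and 48 h, which made 28.9%, 40% and 37.8% of them, against 32.2%, 34.7% and 42.7% of all probe sets.

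Whether the doses differed was tested on the time courses and at each time. In the F test over 3 differences of change, 0 of the 45 genes passed (background 0.00966%); 5 of them (11.1%) had an unadjusted p under 0.05, against 9.54% of all probe sets, and Mcm4 had the smallest adjusted p, 0.34. Cdk1 passed this test (adjusted p = 0.048) and Mki67 did not (adjusted p = 0.21). Set directly against 3 mg/kg at 48 h, 18 mg/kg gave values below 0 for 36 of 45 genes with a median of -0.18 and 0 calls (background 0.029%). Here 5 genes had an unadjusted p under 0.05, against 2.52% of all probe sets. Mcm6 differed by -1.09 ± 0.39 there without overlap (adjusted p = 1.0), while Cdk1 (log2 -2.36, adjusted p = 0.020) and Mki67 (log2 -1.99, adjusted p = 0.032) were lower. At 0, 4 and 24 h 0 genes passed (background 0%, 0% and 0.087%), with 9, 5 and 3 of them at an unadjusted p under 0.05, against 21.4%, 9.79% and 3.01% of all probe sets. Mki67 was lower at 24 h (log2 -1.75, adjusted p = 0.045). With 1 of the 6 arrays left out, the Cdk1 call at 48 h held in 2 of 6 cases and the Mki67 calls at 24 and 48 h in 1 of 6 each. Quantile normalization ended all 3 calls (adjusted p = 0.095 for Cdk1 at 48 h, 0.17 for Mki67 at 48 h and 0.14 for Mki67 at 24 h), and median centring ended both Mki67 calls (adjusted p = 0.054 at 48 h and 0.086 at 24 h). Without replicate 3 of the 0 h group of the 3 mg/kg arm 6 genes passed at 0 h (13.3%, the same share as of all probe sets) and 1 in the F test (2.22%, against 0.428%). Without replicate 1 at 4 h after 18 mg/kg 2 passed at 0 h (4.44%, against 8.95%).

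In cortex 0 of the 45 genes passed in any of the 6 comparisons with 0 h, where the background was 0%, 0.0741% and 0% at 4, 24 and 48 h after 3 mg/kg and 0% at each time after 18 mg/kg. Between 2 and 11 genes had an unadjusted p under 0.05. The medians lay between -0.045 and 0.071, and at 48 h after 18 mg/kg 24 of 45 genes were below 0 with a median of -0.016. Mcm6 stood at 0.16 ± 0.12 there (adjusted p = 0.49), Cdk1 at -0.34 ± 0.12 (adjusted p = 0.17) and Mki67 at -0.02 ± 0.10 (adjusted p = 0.96). Without replicate 2 of the 48 h group after 18 mg/kg 3 genes passed at that time (6.67%, against 6.91% of all probe sets), and without replicate 1 of it 1 did (2.22%, against 1.13%). The actin gap averaged 3.98 ± 0.90 at 48 h after 18 mg/kg in cortex and 2.65 ± 0.89 at 0 h (SD, n = 3 each), and with this gap as a covariate 0 of the 45 genes passed over the 6 comparisons.

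Tested directly, the time courses in liver and cortex did not differ past the threshold for any of the 45 genes after 18 mg/kg (background 0.129%) or 3 mg/kg (background 0.293%). The smallest adjusted p was 0.30 for Mcm6 after 18 mg/kg and 0.066 for Ccne1 after 3 mg/kg. Cdk1 and Mki67 passed after 18 mg/kg (adjusted p = 0.032 and 0.0026). Without replicate 3 of the 0 h liver group of the 3 mg/kg arm 6 genes passed after 3 mg/kg (13.3%, against 10.3% of all probe sets), and without replicate 1 of that group 1 did (2.22%, against 0.245%). Without replicate 1 at 24 h after 18 mg/kg in liver 1 gene passed after 18 mg/kg (2.22%, against 0.126%).

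Of 52 other genes of DNA copying and its control, 43 were measured. The list was chosen with earlier results of these data known, so its shares of calls are a description and no test of these genes as a set. At 48 h after 18 mg/kg in liver 3 of them passed (6.98%, against 0.0966% of all probe sets), all lower: Ccna2, the cyclin of S phase and G2, Top2a, the topoisomerase that untangles copied chromosomes, and Asf1b, a histone chaperone. Top2a read 6.55, 5.96 and 6.45 at 48 h, against 8.17, 8.7 and 7.63 at 0 h, without overlap (log2 -1.84 ± 0.28, adjusted p = 0.0056). Ccna2 read 5.14, 4.67 and 5.16, against 6.74, 7.09 and 6.83 (log2 -1.89 ± 0.33, adjusted p = 0.015), and Asf1b read 5.23, 5.18 and 5.06, against 6.33, 6.47 and 6.09 (log2 -1.14 ± 0.22, adjusted p = 0.042). Hells, a chromatin remodeller, stood at -0.10 ± 0.27. Over the 43 genes 31 lay below 0 with a median of -0.12. At 48 h after 3 mg/kg 6 of the 43 passed (14%, near the 9.34% of all probe sets), 3 higher and 3 lower, and without the compressed 0 h array 0 of 31042 probe sets did. With all arrays Orc5, another origin recognition subunit, stood at 1.14 ± 0.28 (adjusted p = 0.026) and Usp1, a deubiquitinase that acts on Pcna, at 0.95 ± 0.28 (adjusted p = 0.039). Ccna2 was also lower at 18 than at 3 mg/kg at 48 h (log2 -1.88 ± 0.33, adjusted p = 0.032) and at 24 h (log2 -1.78 ± 0.33, adjusted p = 0.034).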

How the data were processed

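RNA from cortex and liver was labelled with biotin and hybridised to Affymetrix rat arrays. The authors deposited log2 values, made with RMA and Partek per the submitters' processing notes, with no version or settings given in the sources used here. The deposited liver arrays did not share 1 distribution, with SDs of 1.38 to 2.08 and medians of 6.07 to 6.50. Of 31099 probe sets, 57 controls were left out and dim probe sets were kept. Groups came from the sample labels. Arrays carry no counts, and their number limits the precision.

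For each tissue, limma 3.58.1 under R 4.3.3 estimated a mean for each of 8 groups from 24 arrays, with moderated variances. All tests were two-sided, with Benjamini-Hochberg adjustment within a comparison over all 31042 probe sets and 0.05 as the threshold. The tissue test used 16 group means over 48 arrays and took no pairing of cortex with liver into account. Log2 changes carry the model's SE and 95% confidence intervals. The models were tested on simulated data.

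The genes, roles and lists were chosen with earlier results of these data known. Values by array are given for genes called in a liver comparison and up to 2 genes per role with the smallest p. Alternatives were quantile normalization, median centring, dim probe sets left out (mean under the 25th percentile), 1 value per gene, array weights (whose estimate stopped before it converged), pooled 0 h groups, compressed arrays left out, the actin gap as a covariate in cortex, a replicate block and each array left out. Promoters came from RefSeq on GRCr8.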

Additional observations from a re-analysis of the deposited data

Results flagged for a closer look

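None of the 45 replication genes gave a difference between doses or tissues that passed its own test. The mitotic genes set beside them were chosen after they had been seen to fall. Cdk1 passed the F test between doses and Mki67 did not (adjusted p = 0.21), and both passed between tissues after 18 mg/kg. The time course of Cdk1 in liver differed between 18 and 3 mg/kg (limma F test, adjusted p = 0.048), where the change at 18 mg/kg minus that at 3 mg/kg was -2.70 (log2) at 24 h and -3.22 at 48 h. The 0 h means of Cdk1 were 8.03 in the 18 mg/kg arm and 7.16 in the 3 mg/kg arm, but the arrays overlapped. They read 7.89, 8.04 and 8.15 in the 18 mg/kg arm, against 6.91, 6.36 and 8.22. The value of 6.36 came from the compressed array, and 0 probe sets passed between the 0 h groups. Set directly at 48 h, the log2 difference was -2.36. The time courses after 18 mg/kg differed between liver and cortex for Cdk1 (adjusted p = 0.032) and for Mki67 (adjusted p = 0.0026).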

How the results depend on the processing

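The count of called replication genes at 48 h after 3 mg/kg in liver was 6 as deposited (13.3%, against 9.34% of all probe sets). It was 3 after median centring (6.67%, against 9.28%) and 1 without both compressed arrays (2.22%, against 4.42%). With the 0 h groups pooled it was 0. Array weights gave 13, 18 and 17 genes at 4, 24 and 48 h after 3 mg/kg. These made 28.9%, 40% and 37.8% of the 45, against 32.2%, 34.7% and 42.7% of all probe sets. They gave 3 and 8 at 4 and 48 h after 18 mg/kg (6.67% and 17.8%, against 1.75% and 0.667%). Weights also gave 1 between later times, 17 in the direct dose comparisons, 15 in the dose F test and 32 in cortex. In the tissue tests after 3 and 18 mg/kg they gave 21 and 6. The deposited values gave 0 outside the 48 h comparison after 3 mg/kg. Shares of all probe sets are not given for those other tests, so their counts are no result about the replication genes. The cause was not tested. With 1 array left out the counts ran from 0 to 5, 0 to 7 and 0 to 8 at 4, 24 and 48 h after 3 mg/kg, 0 to 6 in the direct dose comparisons, 0 to 1 in the dose F test, 0 to 3 in cortex, 0 to 6 in the tissue test after 3 mg/kg and 0 to 1 in that after 18 mg/kg. They stayed at 0 at each time after 18 mg/kg and between later times. No direction of a named call reversed. Quantile normalization left none of the 3 calls of Cdk1 and Mki67 between doses at 24 or 48 h, and median centring left that of Cdk1 at 48 h. In cortex 0 genes passed with the actin gap as a covariate. Quantile normalization put 28 genes below 0 at 48 h after 3 mg/kg, median centring 18, and the deposited values 20. With the replicate number as a block 5 genes passed there (11.1%, against 10.3% of all probe sets), without Cdc45. In that fit the lower Mki67 and Cdk1 at 18 than at 3 mg/kg did not pass (adjusted p = 1.0 for Mki67 at 24 h, 0.49 for Cdk1 and 0.78 for Mki67 at 48 h). Within a tissue and arm, arrays with the same number did not deviate together on average, so the numbers were not taken to pair arrays. The mean correlation was -0.04 to 0.06 by arm and tissue, with single pairs from -0.48 to 0.48. These correlations cannot show whether cortex and liver arrays of the same number came from 1 rat, which the labels do not state. The number of arrays, 3 a group, limits the precision.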
